A study of Mus musculus with 4 samples.

Results

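This account follows 10 genes that mark blood and lymphatic vessels, Tie1, Tek, Pecam1, Cdh5, Kdr, Flt1, Flt4, Eng, Plvap and Vwf, in the irradiated mouse intestine. They were named as established endothelial genes, not for their values here, although results of these data were already known when the set was drawn up. All 10 are among the 17505 genes of the expression table, and all 10 passed the filter that 11621 genes passed, an average of 1 FPKM or more across the libraries. FPKM is the number of fragments relative to transcript length and to all fragments mapped, so levels of different genes can be set side by side.

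The samples came from the intestine of C57BL/6 mice, taken 3 days after 10 Gy of X-rays to the abdomen. The methods name intestines but a legend names crypts, so the material is not settled. Vil-CREPT-KO mice carry floxed alleles of Rprd1b, the gene for CREPT (a protein that binds RNA polymerase II), and a Cre recombinase driven by the villin promoter. That promoter is active in the gut epithelium, so endothelial cells keep an intact gene. WT mice are labelled only as wildtype, and both groups were irradiated, so no unirradiated level stands beside these values. Each group had 2 libraries, which the study calls biological replicates, and a legend of the study gives 2 mice per genotype. The methods name male and female mice, and the labels give neither the sex or age of the animals nor the segment of intestine.

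Endothelial cells line every vessel and depend on a small set of receptors for their growth and survival. VEGF ligands act through Flt1, Kdr and Flt4, and angiopoietins act through the pair of receptors Tek and Tie1. Cdh5 and Pecam1 hold neighbouring endothelial cells together, Eng is a co-receptor for BMP and TGF-β ligands, Plvap builds the diaphragms of fenestrated capillaries, and Vwf is stored in endothelial granules and in platelets. Capillaries under the intestinal epithelium are of the fenestrated kind. Endothelial promoters are known for sites of ETS transcription factors, whose core is GGAA.

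The promoters of Tie1, Eng and Flt4 are shown here because these genes had the 3 lowest unadjusted p-values between the genotypes and their entry ends at the edge of the annotated gene. Each is the 250 bases before the start, 5′ to 3′ on the strand of the gene, from RefSeq on GRCm38.p6, with GGAA and its reverse complement TTCC in capitals. Of the 10 genes, 6 had an entry, namely Tie1, Tek, Kdr, Flt1, Flt4 and Eng.
Tie1: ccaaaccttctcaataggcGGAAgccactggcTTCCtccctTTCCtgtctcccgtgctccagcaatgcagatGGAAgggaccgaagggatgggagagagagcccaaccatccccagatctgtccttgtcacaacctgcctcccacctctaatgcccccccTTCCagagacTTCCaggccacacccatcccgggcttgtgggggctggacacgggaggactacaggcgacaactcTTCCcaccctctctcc
Eng: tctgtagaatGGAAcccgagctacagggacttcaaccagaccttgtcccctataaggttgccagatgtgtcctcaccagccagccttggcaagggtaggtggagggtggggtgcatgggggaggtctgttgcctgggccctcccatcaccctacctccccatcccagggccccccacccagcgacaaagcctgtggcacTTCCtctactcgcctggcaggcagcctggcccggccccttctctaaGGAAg
Flt4: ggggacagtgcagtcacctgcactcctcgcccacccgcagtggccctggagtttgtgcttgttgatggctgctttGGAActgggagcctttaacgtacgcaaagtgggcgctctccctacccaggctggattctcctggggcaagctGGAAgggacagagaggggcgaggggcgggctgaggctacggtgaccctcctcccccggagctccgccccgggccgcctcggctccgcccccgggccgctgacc
They lie at chr4:118489850-118490099 (minus strand), chr2:32646345-32646594 (plus strand) and chr11:49609429-49609678 (plus strand). Counting both strands, the Tie1 sequence held 7 GGAA cores, that of Eng 3 and that of Flt4 2. At least 1 core was found in 93.4% of the 32851 promoters of this length and at least 7 in 3.82%, with a median of 3. The longer word AGGAAG, which contains the core, occurred once in Tie1 and was not found in Flt4, and Eng held 2. This word was in 29.5% of all promoters. These matches describe the letters only.

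Tie1 was the only one of the 10 genes that passed the test between the genotypes, and it rose in the Vil-CREPT-KO intestine. All 10 genes had higher values in both Vil-CREPT-KO libraries than in either WT library, a pattern found in 31.9% of all tested genes. None of the other 9 passed the test. Plvap and Pecam1 were the most abundant of the set in every library.

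Tie1 (gene ID 21846, chromosome 4, 118471191 to 118489849) is a receptor that pairs with Tek and shapes its signal. Tie1 had 14.22 and 8.41 FPKM in Vil-CREPT-KO 1 and 2, compared with 2.21 and 2.66 FPKM in WT 1 and 2. The groups were far apart, and even the lower Vil-CREPT-KO library was 3.16 times the higher WT library. The means were 11.3 ± 4.11 and 2.44 ± 0.318 FPKM (SD, n = 2 each), a ratio of 4.65. Taken as log2(FPKM + 1), where changes at low levels come out too small, the difference was 1.80 ± 0.26 (SE), with an adjusted p of 0.0455 in limma over all genes. Calls needed an adjusted p below 0.05 together with a log2 change of more than 1. By this rule 0.387% of the tested genes were called higher and 1.69% were called lower. Of the 10 endothelial genes 1 was called higher and 0 were called lower, and 5 had an unadjusted p under 0.05 and were higher, against 10.2% of all genes. The adjusted p of Tie1 was close to the threshold, and the call was lost in 6 of 15 alternative settings. Without WT 1 the log2 change was 1.71 (adjusted p = 0.384) and without WT 2 it was 1.90 (adjusted p = 0.279). Leaving out a library leaves 1 residual degree of freedom, with the spread set by the complete pair and the lone library assumed to vary alike. The number of genes called in such fits ran from 4 without WT 1 to 900 without Vil-CREPT-KO 2, so these p-values are no measure of stability.

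Tek (21687, chromosome 4, 94739086 to 94874976), the angiopoietin receptor also called Tie2, had 1.93 and 1.47 FPKM in Vil-CREPT-KO 1 and 2, compared with 0.91 and 1.37 FPKM in WT 1 and 2. The groups did not overlap, but Vil-CREPT-KO 2 and WT 2 were almost level, with a ratio of 1.07. The log2 difference of Tek was 0.34 ± 0.19 (adjusted p = 0.383), the smallest of the 10. Both Tie receptors therefore had the same order of libraries and unequal differences. The ratio of Tie1 to Tek was 7.37 and 5.72 in the Vil-CREPT-KO libraries and 2.43 and 1.94 in the WT libraries.

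The VEGF receptors had smaller log2 differences than Tie1 and none passed the test. Kdr, the main signalling receptor for VEGF-A, had 2.86 and 2.19 FPKM in Vil-CREPT-KO against 1.20 and 1.85 FPKM in WT. Its log2 difference was 0.49 ± 0.20 (adjusted p = 0.27). Flt1, which binds VEGF-A tightly and can act as a decoy, had 1.69 and 1.22 FPKM in Vil-CREPT-KO against 0.65 and 1.11 FPKM in WT. The log2 difference of Flt1 was 0.39 ± 0.20 (adjusted p = 0.355). The ratio of Flt1 to Kdr was nearly the same in all libraries, at 0.591 and 0.557 in Vil-CREPT-KO against 0.542 and 0.6 in WT. Flt4, the receptor for VEGF-C and VEGF-D on lymphatic vessels, had 1.72 and 1.40 FPKM in Vil-CREPT-KO against 0.63 and 0.84 FPKM in WT. Among the 9 genes beside Tie1, Flt4 had the widest gap between the nearest libraries of the genotypes, with Vil-CREPT-KO 2 at 1.67 times WT 2. Its log2 difference was 0.56 ± 0.17, with an unadjusted p of 0.0203 and an adjusted p of 0.166.

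In the junction genes the replicates differed about as much as the genotypes. Pecam1, the adhesion molecule CD31, had 15.22 and 8.81 FPKM in Vil-CREPT-KO against 4.81 and 8.27 FPKM in WT. Vil-CREPT-KO 2 and WT 2 were again close, at a ratio of 1.07, while the replicates of each genotype were 1.73 and 1.72 times apart. The log2 difference of Pecam1 was 0.78 ± 0.34 (adjusted p = 0.278). Cdh5, VE-cadherin of the adherens junction, had 4.07 and 2.50 FPKM in Vil-CREPT-KO against 1.02 and 2.21 FPKM in WT. Here the WT libraries were 2.17 times apart, more than the group means (2.03 times). The log2 difference of Cdh5 was 0.73 ± 0.30 (adjusted p = 0.27).

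Eng, Plvap and Vwf had mean levels more than 2 times as high in Vil-CREPT-KO and did not pass the test. Eng had 9.87 and 8.16 FPKM in Vil-CREPT-KO against 2.94 and 5.24 FPKM in WT, with means of 9.02 ± 1.21 and 4.09 ± 1.63 FPKM (SD, n = 2 each). Its log2 difference was 1.01 ± 0.26 (adjusted p = 0.135), the lowest adjusted p among the other 9. Plvap, the most abundant of the 10, had 57.45 and 28.89 FPKM in Vil-CREPT-KO against 13.53 and 22.09 FPKM in WT. The Vil-CREPT-KO libraries were 1.99 times apart, and the log2 difference of Plvap was 1.19 ± 0.39 (adjusted p = 0.195). Without Vil-CREPT-KO 2, where the spread comes from WT alone, Plvap passed as well (log2 1.67, adjusted p = 0.0136). Vwf had 2.26 and 1.39 FPKM in Vil-CREPT-KO against 0.69 and 0.98 FPKM in WT, a log2 difference of 0.61 ± 0.22 (adjusted p = 0.218). Eng overlaps Fpgs and Plvap overlaps Gtpbp3 in the annotation, and whether the counting used strand is not given in the sources used here, so reads shared between them are uncertain. Fpgs (7.51 and 5.04 against 4.27 and 6.94 FPKM) and Gtpbp3 (2.21 and 2.22 against 2.29 and 2.35 FPKM) had adjusted p-values of 0.793 and 0.878. Tie1 overlaps no other annotated gene.

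**Figure D1:**
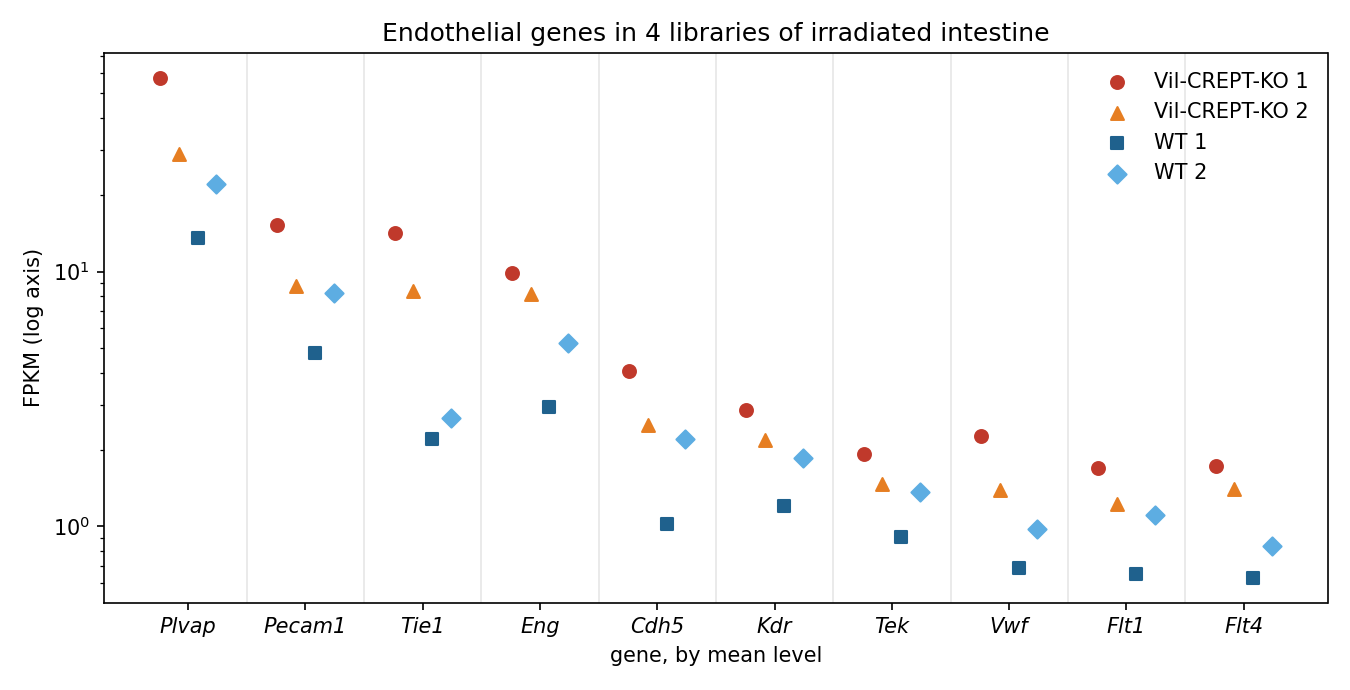
Level of each of the 10 endothelial genes in each library, in FPKM on a log axis, ordered by mean level. Red circles and orange triangles are Vil-CREPT-KO 1 and 2, dark squares and light diamonds are WT 1 and 2. Tie1 stands at 14.22 and 8.41 against 2.21 and 2.66 FPKM, whereas Vil-CREPT-KO 2 and WT 2 nearly touch in Tek and Pecam1.

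**Figure D2:**
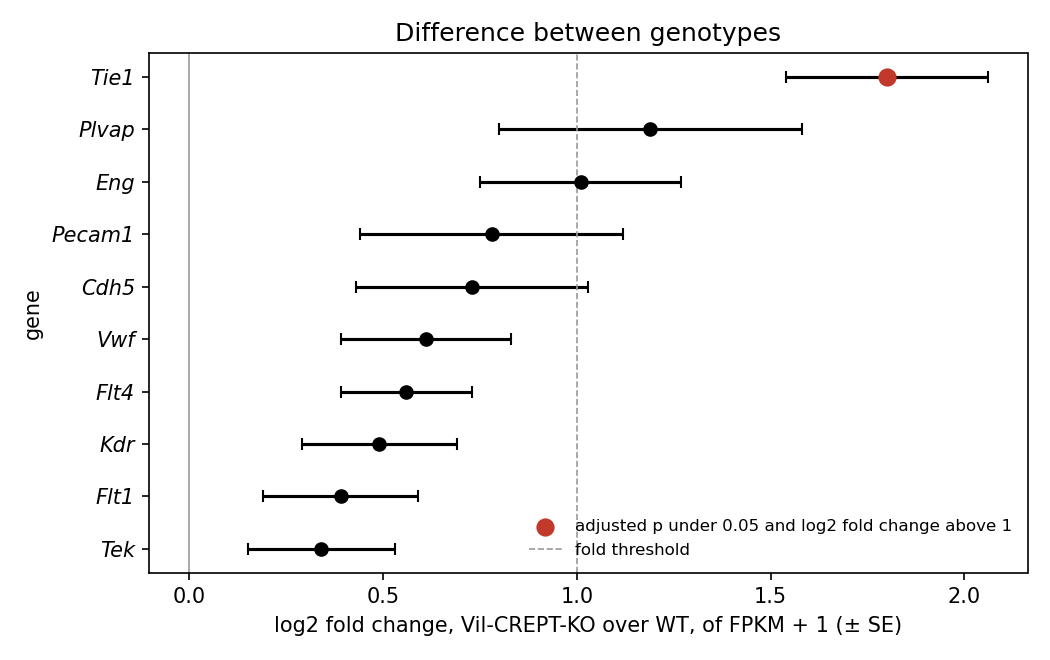
Log2 difference of Vil-CREPT-KO over WT for each endothelial gene, of FPKM + 1, with the standard error from limma (n = 2 each). The red point is Tie1 at 1.80, the only gene called. The other 9 lie between 0.34 and 1.19, and the dashed line marks the threshold of 1.

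In every one of the 10 genes the order of the libraries was the same, Vil-CREPT-KO 1 highest, then Vil-CREPT-KO 2, WT 2 and WT 1. Non-overlap with Vil-CREPT-KO higher was found in 31.9% of all tested genes and this full order in 14.4%. The 10 genes are read from the same 4 libraries and all mark endothelial cells, so these are not 10 separate observations. Platelets and leukocytes carry some of them too. The median log2 difference was 0.67 over the 10 genes and 0.61 without Tie1, beside 0.06 over all tested genes, of which 57.4% were above 0. In bulk tissue, fewer or more endothelial cells and less or more RNA per cell cannot be told apart.

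The summed level of the 10 genes was 111.3 and 64.44 FPKM in Vil-CREPT-KO 1 and 2, compared with 28.59 and 46.62 FPKM in WT 1 and 2. The widest gap was that between the outer libraries, Vil-CREPT-KO 1 and WT 1. Between the inner pair, Vil-CREPT-KO 2 was 1.07 to 1.67 times WT 2 over the 9 genes beside Tie1, with a median of 1.18. A ratio at least as high as the 3.16 of Tie1 was reached by 0.482% of 11610 genes with a value above 0 in WT 2.

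Set against the other 9 genes in the same library, Tie1 was still higher in Vil-CREPT-KO. Its ratio to their geometric mean was 2.98 and 2.59 in Vil-CREPT-KO 1 and 2 and 1.4 and 1.03 in WT 1 and 2. The difference of the log2 ratios was 1.21, and 0.99 to 1.43 when each library was left out in turn. An exact two-sided permutation test gave p = 0.333, the smallest that 2 against 2 libraries allow, so this test cannot reach 0.05. Each of the 9 single ratios was higher in both Vil-CREPT-KO libraries. The ratio to Plvap was 0.248 and 0.291 against 0.163 and 0.12, and the ratio to Pecam1 was 0.934 and 0.955 against 0.459 and 0.322. Tie1 had rank 3 of the 10 by level in both Vil-CREPT-KO libraries and rank 4 in both WT libraries, where Eng had rank 3. These ratios rest on the same Tie1 values as the call above.

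**Figure D3:**
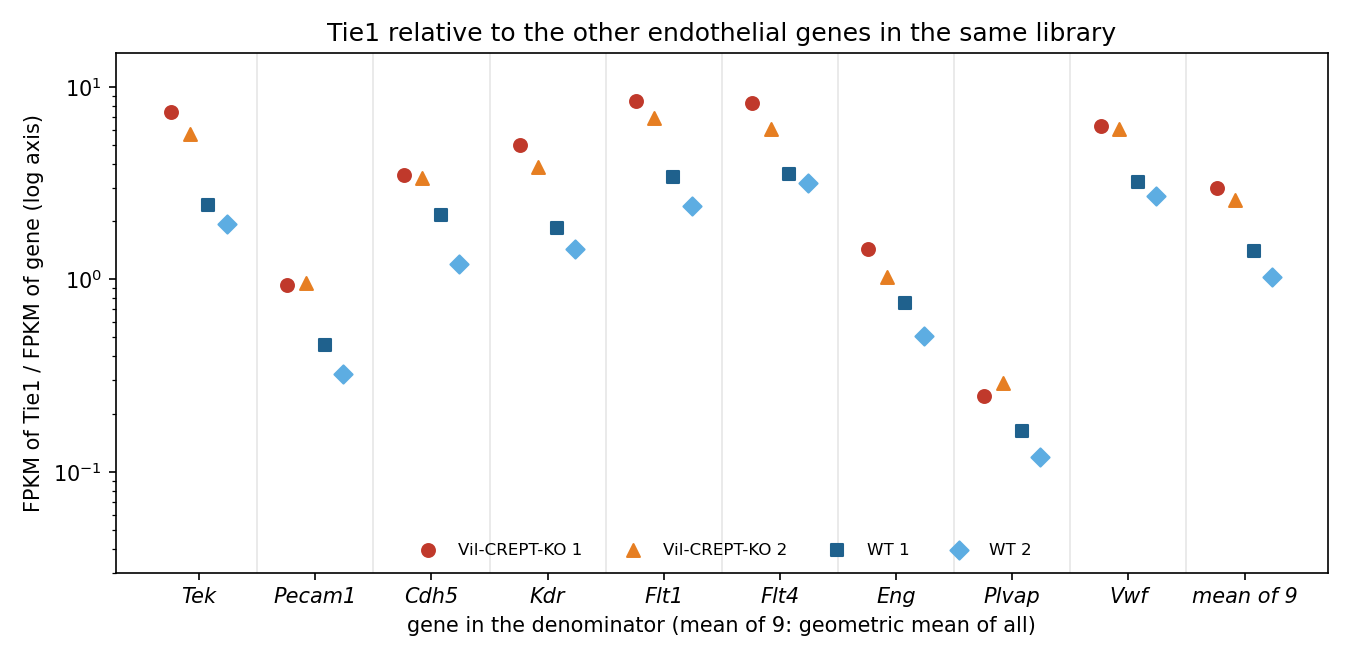
FPKM of Tie1 divided by that of each other endothelial gene in the same library, on a log axis, with the geometric mean of all 9 at the right. Symbols are the libraries as in the plot of levels. In each column both Vil-CREPT-KO libraries lie above both WT libraries, at 2.98 and 2.59 against 1.4 and 1.03 for the geometric mean.

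**Figure D4:**
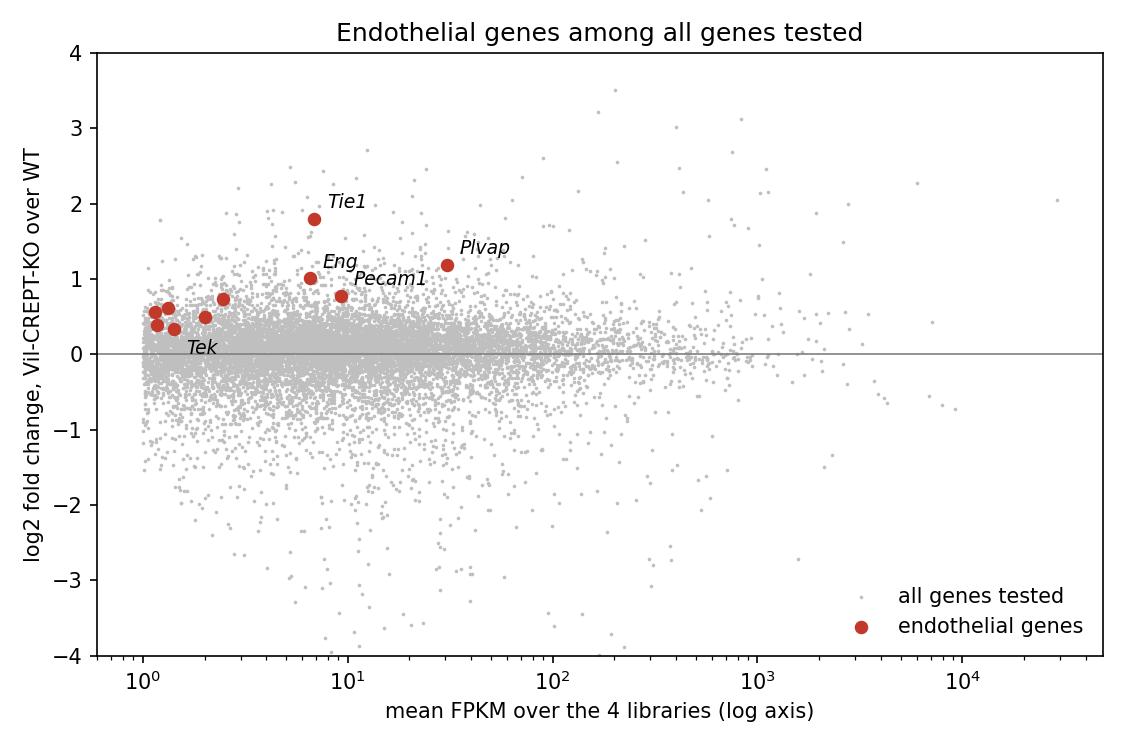
Log2 difference of Vil-CREPT-KO over WT against mean FPKM (log axis) for all 11621 genes tested, with the 10 endothelial genes in red. All 10 lie above 0, at a median of 0.67, and Tie1 is above the others. The 42 genes beyond 4 log2 units lie outside the plotted range.

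The ligands and co-receptors of these receptors did not pass the test. Of 15 listed, 9 were tested, 0 were called by limma and the median log2 difference was 0.37. Above 0 were 6 of the 9 (57.4% of all genes). With no overlap between the genotypes, 5 were higher (31.9% of all genes) and 2 were lower. An unadjusted p under 0.05 was found for 2 genes, Vegfb and Sema3c, and both were lower in Vil-CREPT-KO. Sema3c, a semaphorin that binds neuropilins, is named for this count after its values were seen, and had 2.50 and 1.72 against 4.23 and 3.97 FPKM (log2 -0.72). Vegfa, the main ligand of Kdr and Flt1, had 28.09 and 36.26 FPKM in Vil-CREPT-KO against 27.53 and 26.60 FPKM in WT, a difference of 0.23 (adjusted p = 0.499). Vegfb, a ligand of Flt1, was lower in both Vil-CREPT-KO libraries, at 4.76 and 2.29 against 5.74 and 7.57 FPKM (log2 -0.80, adjusted p = 0.238). Adm and Nrp1 were higher in both. Adm had 10.51 and 3.57 against 3.42 and 2.49 FPKM (log2 0.88, adjusted p = 0.344). Nrp1 had 4.29 and 3.27 against 2.53 and 2.85 FPKM (log2 0.37, adjusted p = 0.312). Angpt1 and Angpt2, the ligands of Tek, were picked out after their values were seen. Angpt1 was below the filter, with no library above 0.47 FPKM. Angpt2 had 2.33 and 0.89 FPKM in Vil-CREPT-KO against 0.38 and 0.94 FPKM in WT, and the groups overlapped.

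Of 16 receptor partners and signalling genes, 14 were tested, 0 were called and 2 were higher at an unadjusted p under 0.05, with a median log2 difference of 0.36. Ramp2, which forms the adrenomedullin receptor, had 29.06 and 11.48 FPKM in Vil-CREPT-KO against 3.94 and 9.42 FPKM in WT. Its log2 difference of 1.43 was the closest in size to that of Tie1 among the named partners, but the libraries within each genotype were more than 2 times apart (adjusted p = 0.234). Id1, a target of BMP signalling that epithelial cells also express, was 76.59 and 62.72 against 71.34 and 83.97 FPKM. Ptprb, the phosphatase that acts on Tek and Cdh5, and Acvrl1, the BMP receptor that works with Eng, were also picked out after their values were seen. Ptprb had 2.53 and 1.69 against 1.06 and 1.38 FPKM, and Acvrl1 had 5.57 and 3.81 against 2.81 and 3.36 FPKM.

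Among 25 other pan-endothelial markers 16 were tested. The median log2 difference was 0.49, 15 of 16 were above 0 (57.4% of all genes) and 7 were higher with no overlap between the genotypes (31.9% of all genes). Of the 16, 5 were higher at an unadjusted p under 0.05 (10.2% of all genes) and 0 were called. Emcn, a sialomucin of capillaries and veins, had 10.36 and 8.12 FPKM in Vil-CREPT-KO against 3.23 and 7.02 FPKM in WT (log2 0.81, adjusted p = 0.266). Ecscr, a receptor of endothelial cells, had 17.88 and 11.92 against 13.78 and 16.99 FPKM, with no separation of the genotypes. In the inner pair of libraries the median ratio of Vil-CREPT-KO 2 to WT 2 was 0.938 over these 16 markers and 1.25 over the 10 genes. Without Vil-CREPT-KO 1 the median log2 difference of the 16 markers was 0.20.

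Of the 18 genes listed as endothelial transcription factors 8 were tested. In this list 0 were called, 0 had an unadjusted p under 0.05 and the median log2 difference was 0.35. Above 0 were 6 of the 8 (57.4% of all genes). With no overlap between the genotypes, 5 were higher (31.9% of all genes) and 1 was lower. The most abundant of the listed factors are not confined to endothelium. Klf4, which goblet cells also express, was lower in both Vil-CREPT-KO libraries, at 115.77 and 130.20 against 205.72 and 135.99 FPKM. Ets2 had 63.27 and 64.38 against 55.31 and 50.02 FPKM. Sox18 is also a transcription factor but was listed with the pan-endothelial markers, and is named after its values were seen. It had 4.02 and 2.07 FPKM in Vil-CREPT-KO against 0.41 and 1.16 FPKM in WT. Its log2 difference was 1.17, with an unadjusted p of 0.0158 and an adjusted p of 0.154 in limma.

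Arterial and venous genes (10 of 15 tested) had a median log2 difference of 0.24, with 2 higher at an unadjusted p under 0.05 and 0 called. Dll4, a Notch ligand of arterial and tip cells, had 4.93 and 4.91 FPKM in Vil-CREPT-KO against 3.40 and 3.17 FPKM in WT, with close replicates (log2 0.47, adjusted p = 0.161). Ackr1, a chemokine-binding receptor of venules, had 8.03 and 2.42 against 1.25 and 1.94 FPKM, so its difference of 1.11 lay mostly in 1 library.

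Of 9 lymphatic genes 6 were tested, all 6 were above 0 with a median of 0.52, 1 was higher at an unadjusted p under 0.05 and 0 were called. Pdpn, a mucin-like protein that marks lymphatic vessels and also fibroblasts, had 20.12 and 14.12 FPKM in Vil-CREPT-KO against 6.00 and 8.15 FPKM in WT (log2 1.16, adjusted p = 0.0884). Ccl21a, a chemokine of lymphatic endothelium, had 29.12 and 29.57 against 11.69 and 22.98 FPKM. Lyve1, a hyaluronan receptor of lymphatic vessels and some macrophages, had 14.88 and 7.44 against 6.94 and 7.84 FPKM, and its groups overlapped.

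The adhesion and activation genes, 10 of 12 tested, were all above 0 with a median log2 difference of 0.55, 3 were higher at an unadjusted p under 0.05 and 0 were called. Procr, the protein C receptor, had 9.74 and 7.86 FPKM in Vil-CREPT-KO against 4.38 and 4.30 FPKM in WT. With a log2 difference of 0.87 it had the lowest adjusted p (0.0717) of the 73 tested genes in these 7 vascular lists. Over the 7 lists together 0 genes were called in either direction and 15 had an unadjusted p under 0.05, 13 of them higher and 2 lower. Of all tested genes 10.2% were higher at an unadjusted p under 0.05. Thrombomodulin (Thbd) had 9.31 and 6.75 against 3.14 and 5.19 FPKM.

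Markers of other cells of the gut wall also differed between the libraries, and their part in the endothelial values was not tested. Smooth muscle markers had a median log2 difference of -0.36 over 8 genes, below 0 where the endothelial genes were above it, and their summed level was 1075 and 720.6 FPKM in Vil-CREPT-KO against 869.8 and 1350.0 FPKM in WT. Fibroblast markers summed to 479.2 and 268.7 against 190.1 and 314.4 FPKM, with a median difference of 0.65 over 9 genes. Pericyte markers summed to 100.4 and 53.92 against 62.71 and 96.57 FPKM. Of these Pdgfrb, the PDGF receptor of pericytes and fibroblasts, had 7.60 and 5.33 against 2.40 and 2.42 FPKM (log2 1.11, adjusted p = 0.0657), whereas Rgs5 had 59.48 and 31.15 against 48.93 and 75.09 FPKM. No gene of these 3 lists was called by limma, and at an unadjusted p under 0.05 there were 3 smooth muscle genes, all lower, 5 fibroblast genes, 4 higher and 1 lower, and 2 pericyte genes, both higher.

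Platelets carry Vwf and Pecam1, and leukocytes carry Pecam1. Of 10 platelet and megakaryocyte markers 3 were tested, with a median log2 difference of 0.82, 2 higher at an unadjusted p under 0.05 and 0 called by limma. That median was above the 0.67 of the endothelial genes, and so was the median ratio of Vil-CREPT-KO 2 to WT 2, at 1.43 against 1.25. The whole list summed to 42.23 and 22.81 FPKM in Vil-CREPT-KO against 12.17 and 20.00 FPKM in WT. Gp1bb, a subunit of the platelet receptor for Vwf, had 21.64 and 10.30 FPKM in Vil-CREPT-KO against 4.96 and 7.21 FPKM in WT (log2 1.19, adjusted p = 0.175). Itgb3, an integrin of platelets and other cells, was higher in both Vil-CREPT-KO libraries too (4.01 and 2.87 against 1.21 and 1.81 FPKM, log2 0.82). Pf4, a platelet chemokine, had 15.11 and 8.44 against 5.14 and 9.46 FPKM. Its ratio to Pecam1 was 0.993 and 0.958 against 1.07 and 1.14. The platelet markers below the filter are named after their values were seen and went both ways. Gp9 was lower in both Vil-CREPT-KO libraries (0 and 0.07 against 0.42 and 1.01 FPKM). Ppbp (0.61 and 0.26 against 0.10 and 0.05 FPKM) and Itga2b (0.75 and 0.69 against 0.25 and 0.18 FPKM) were higher in both. The others, such as Gp1ba (0.04 and 0 against 0.04 and 0.10 FPKM), overlapped. All 7 of the red cell markers listed were left untested, and the 6 in the table summed to at most 1.94 FPKM. Leukocyte markers summed to 168.7 and 149.7 against 118.7 and 126.8 FPKM, with a median log2 difference of 0.46 over 8 genes, 5 of them higher and 1 lower at an unadjusted p under 0.05 and 0 called. The lower one, picked out for this count after its values were seen, was Cd3e of T cells, at 1.62 and 1.59 against 4.09 and 2.87 FPKM. As for the other cell types, their part was not tested.

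Adipocyte, neural and epithelial markers also differed between libraries. Adipoq, a defining gene of fat cells, had 4.55 FPKM in Vil-CREPT-KO 1 and 0.14, 0.59 and 0.61 FPKM in Vil-CREPT-KO 2, WT 1 and WT 2. Fabp4, which fat cells and capillary endothelium share, had 115.61 and 32.12 against 21.36 and 28.85 FPKM. Vil-CREPT-KO 1 was therefore the library highest in both the endothelial genes and Adipoq. The other tested adipocyte markers were split. Plin4 was also highest in Vil-CREPT-KO 1 (2.02 and 0.42 against 0.70 and 1.19 FPKM). Cidec, the most abundant of the list, was lowest there (67.42 and 90.02 against 86.31 and 80.83 FPKM). The adipocyte markers below the filter, named after their values were seen, were all highest in Vil-CREPT-KO 1. Plin1 had 0.50 and 0.03 against 0.06 and 0.03 FPKM, and Lep had 0.62 and 0 against 0 and 0.02 FPKM. Retn had 2.27 and 0 against 0.38 and 0.78 FPKM. Enteric neuron and glia markers summed to 19.18 and 7.97 against 8.59 and 21.32 FPKM. Epithelial markers summed to 11150 and 8774 against 7269 and 7267 FPKM, with a median difference of 0.38 over 8 genes. Of these, 1 was higher at an unadjusted p under 0.05 and 0 were called by limma. Epcam had 1183.53 and 878.33 against 617.80 and 621.42 FPKM. Vil1, picked out after its values were seen, was lower in both Vil-CREPT-KO libraries, at 338.14 and 367.26 against 500.90 and 453.54 FPKM (log2 -0.43). Without Vil-CREPT-KO 1 the median over the 10 endothelial genes was 0.44, and the log2 difference of Tie1 was 1.46 (adjusted p = 0.0151, with the spread taken from WT alone).

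**Figure D5:**
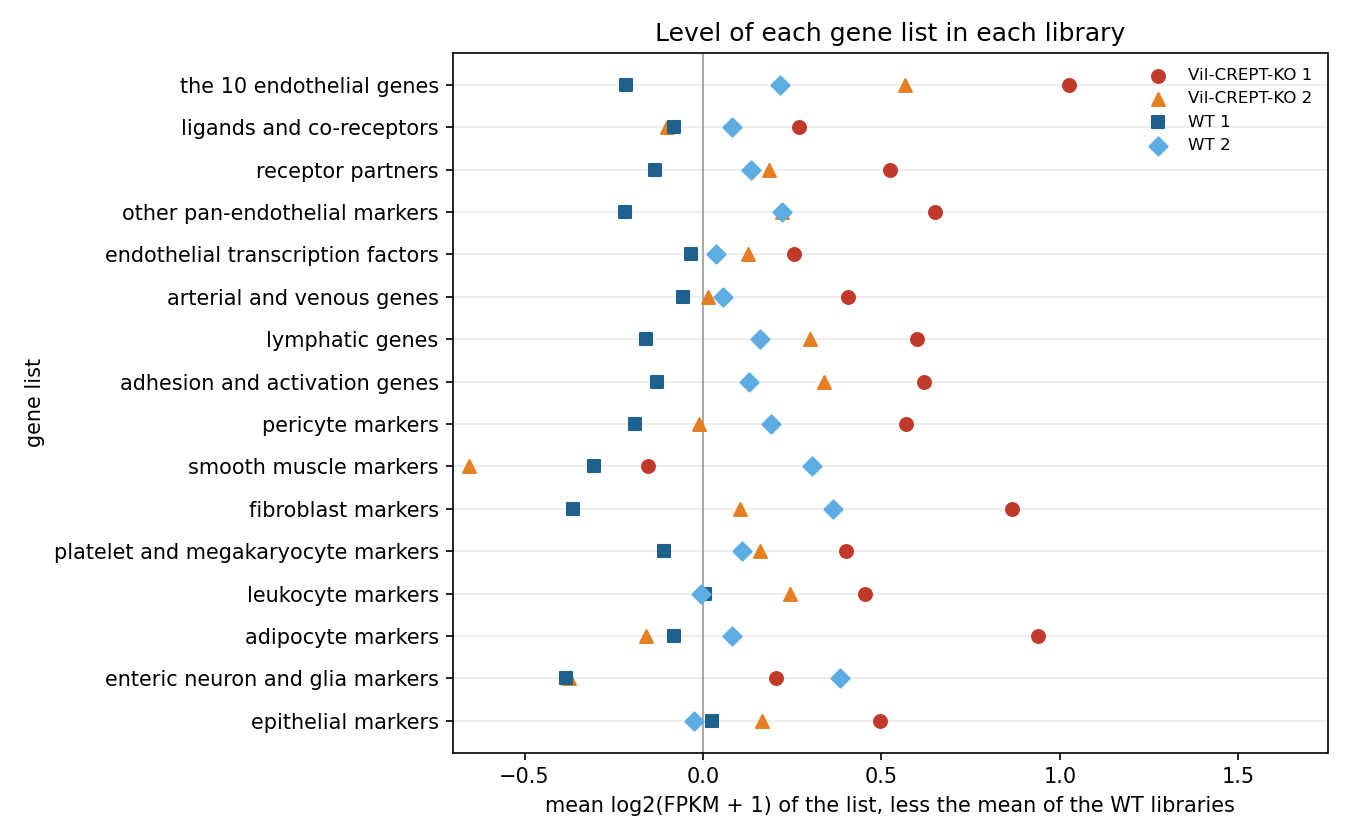
Mean log2(FPKM + 1) of each gene list in each library, less the mean of the WT libraries. Symbols are the libraries as in the plot of levels. The 10 endothelial genes stand at 1.02 and 0.56 in Vil-CREPT-KO 1 and 2, the highest of the lists plotted in each. Adipocyte markers reach 0.94 and -0.16, fibroblast markers 0.87 and 0.10 and smooth muscle markers -0.16 and -0.65. Each list is averaged over all its genes with a value, also those below the filter, which all 10 endothelial genes passed. The order of the lists therefore depends in part on their low genes and on Tie1.

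Facts of the whole series bear on these values. Genes of the stomach and of mucous glands, all 11 of 11 called lower, summed to 26.92 and 114.6 FPKM in Vil-CREPT-KO against 39500 and 42590 FPKM in WT, and Tff2 alone had at least 22395.38 FPKM in each WT library. Pancreatic acinar genes summed to 102.0 FPKM in Vil-CREPT-KO 1 and to 8165 to 22720 FPKM in the other libraries. The genotypes and the makeup of the tissue taken therefore cannot be told apart. FPKM is a share, so such transcripts lower all other values in a library. With these genes left out and each library rescaled, the log2 difference of Tie1 was 1.71 (adjusted p = 0.0349) and the median of all genes moved from 0.06 to -0.06. Rprd1b (70470, chromosome 2, 158028475 to 158078207), the deleted gene, had 4.01 and 3.93 FPKM in Vil-CREPT-KO against 5.99 and 7.19 FPKM in WT (log2 -0.61, adjusted p = 0.129). The floxed allele of the study loses an exon, not the whole gene, and FPKM here is per gene. By protein staining the study reported CREPT as absent from the epithelium of Vil-CREPT-KO mice but still seen in connective tissue cells. Spacing of low values put the depth near 17700000 to 18300000 fragments per library, about 72 to 2100 fragments for an endothelial gene.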

How the data were processed

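RNA from irradiated intestine was measured in 4 libraries, grouped and numbered by the sample labels. The authors deposited 1 table of FPKM. Per the study's methods, BGISEQ reads were mapped with Bowtie2 to GRCm38.p6 transcripts and levels calculated with RSEM, whose estimates split reads that fit several genes. HISAT and mm10 stand in the submitters' processing notes too, without versions. Intestines are named in the methods but crypts in a legend, so the material is not settled.

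Values were tested as log2(FPKM + 1) where the mean over libraries was at least 1 FPKM (11621 genes, 5884 below). limma 3.58.1 in R 4.3.3, with a mean-variance trend and Benjamini-Hochberg adjustment over all tested genes, compared the groups two-sided and was tested on simulated data. Calls needed an adjusted p below 0.05 and a log2 change beyond 1 in either direction. Medians and counts over lists carry no test. The labels do not name animals, but a legend of the study gives 2 mice per genotype. P-values measure only the spread between these samples. Symbols, coordinates and promoters came from RefSeq (17473 of 17505 identifiers matched). Spacing of low values gave no whole reads (64.9% to 70.2% within 0.15 of a whole number), so no count model was run, and approximate fragments carry counting error only.

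The endothelial genes and all lists were chosen with earlier results of these data known. The text names the 10 genes, Rprd1b and, from each list, called genes and up to 4 of its most abundant tested genes, except where said. Alternatives were other pseudocounts (0.1, 5), filters (none, 5 FPKM) and scalings, robust moderation, no variance trend, calls on the adjusted p without the fold, a replicate block and leaving out each library. The rescaling and the stomach and pancreas lists follow earlier results.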

Additional observations from a re-analysis of the deposited data

How the results depend on the processing

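Across 129 alternatives for the 9 genes beside Tie1, 0 reversed and 2 passed the threshold, both for Plvap (log2 1.67, adjusted p = 0.0136 without Vil-CREPT-KO 2, where the spread comes from WT alone, and adjusted p = 0.0435 under the crossed pairing). Their log2 differences ranged from 0.13 to 1.67. Tie1 ranged from 1.11 to 2.15 over 15 alternatives and kept its call in 9, with an adjusted p between 0.00117 and 0.384. The call was lost with a pseudocount of 5 (adjusted p = 0.0621), no filter (0.110), no variance trend (0.0501), the replicate block (0.0768), and without WT 1 (0.384) or WT 2 (0.279). The cause was not tested.

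Over all genes 241 were called, 45 higher and 196 lower. The count was 141 with a pseudocount of 5, 78 with no filter and 122 with the replicate block, and 4 to 900 when 1 library was left out (419 without Vil-CREPT-KO 1, 900 without Vil-CREPT-KO 2, 4 without WT 1 and 6 without WT 2). Of the 10 endothelial genes 1 was called. None (0) was called with a pseudocount of 5, no filter, no variance trend or the replicate block, and 0 to 2 when 1 library was left out. Their median log2 difference, 0.67, was 1.01 with a pseudocount of 0.1, 0.27 with a pseudocount of 5 and 1.10 with a filter at 5 FPKM, where 4 remained tested, and 0.44 to 0.91 when 1 library was left out. Ecscr ranged from -0.34 to 0.21, Acta2 from -0.56 to 0.17 and Adipoq from -0.49 to 1.79 when 1 library was left out, and so changed sign.

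The labels do not say that replicate numbers pair the libraries, and deviations of same-numbered libraries correlated at -0.26 over 11621 genes. With the replicate number as a block 0 of the 10 genes and 122 genes in all were called. A crossed pairing, added after the data were seen, called 2 and 346. No limit of detection was computed, and the lowest value of an endothelial gene rested on about 72 fragments.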
